A study of Mus musculus with 21 samples.

Results

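Knockouts of 2 stress-response transcription factors, ATF3 and C/EBP gamma (gene Cebpg, labelled CEBPG), were compared directly in mouse cells that had been sorted as retinal ganglion cells. These are the output neurons of the eye, and their axons make up the optic nerve. The comparison used 9 of the 21 libraries of the series, 5 ATF3 knockouts (replicates 5 to 9) and 4 CEBPG knockouts (replicates 6, 8, 9 and 10). They are all the libraries with these genotypes, and no control library entered. Every library came from C57BL/6 mice, 6 to 7 weeks old, 3 days after crush of the optic nerve, and the submitters' sample sheet puts all 9 in females and in batch 3, so batch and sex, which separate these knockouts from the controls of the series, do not differ between them. The cells had received guide RNAs against either gene. The sources used here do not give the supply of Cas9, the guides or the gate of the sort. The labels do not say whether libraries of a group came from separate animals. If they did not, the p-values rest on a spread that may be technical.

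ATF3 and C/EBP gamma are both basic leucine zipper (bZIP) proteins, which bind DNA only as dimers. ATF3 is induced by injury in many neurons and pairs with members of the AP-1 and ATF families. C/EBP gamma lacks a strong activation domain of its own and pairs with ATF4, the effector of the integrated stress response, as well as with other C/EBP proteins. In the crushed optic nerve model most ganglion cells die over the weeks after injury, and microglia and blood-borne immune cells react in the retina.

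The ATF3 knockouts had 25267560 to 32776378 counted reads each and the CEBPG knockouts 9000250 to 29810987, and duplicates made up 48.0% to 54.4% of read pairs. Reads fell on 16355 to 16453 genes per ATF3 library and on 15155 to 15740 per CEBPG library. With every library thinned to 9000250 reads the ranges were 16164 to 16247 and 15067 to 15587, so fewer genes were detected in the CEBPG knockouts at equal depth too (exact permutation p = 0.00794, two-sided, the smallest p that 5 against 4 libraries allow). The ATF3 libraries resembled each other more (correlation 0.957 to 0.963, of log2 CPM, the reads on a gene scaled to a common library size) than the CEBPG libraries did (0.845 to 0.902). In a principal component analysis the axis with 34.1% of the variance separated the groups. The next axis, with 21.4%, set CEBPG replicates 6 and 8 apart in opposite directions.

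**Figure D1:**
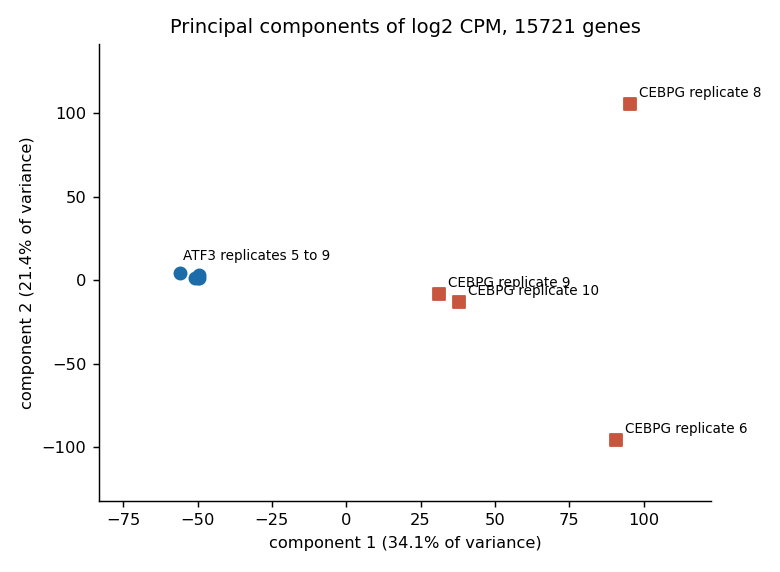
Scores of the 9 libraries on the first and second principal components of log2 CPM over all genes tested, with the percent of variance on each axis. Circles are ATF3 and squares CEBPG knockout libraries. The ATF3 libraries lie close together, and CEBPG replicates 6 and 8 lie at -95.9 and 105.4 on component 2.

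The labelled cell type was checked against its markers. Genes of ganglion cell identity took 0.107% to 0.113% of counted reads in the ATF3 knockouts and 0.0733% to 0.089% in the CEBPG knockouts. Of its defining transcription factors, Pou4f2 had 26 reads over the 5 ATF3 and 0 over the 4 CEBPG libraries, and Pou4f1 was at 1.43 to 1.82 against 3.41 to 5.81 CPM. The list of amacrine cells, inhibitory interneurons of the retina, took 0.51% to 0.528% of counted reads in the ATF3 knockouts and 0.301% to 0.367% in the CEBPG knockouts, that of Müller glia 1.2% to 1.37% of counted reads in the ATF3 knockouts and 0.874% to 1.1% in the CEBPG knockouts, and that of homeostatic microglia 0.697% to 0.786% of counted reads in the ATF3 knockouts and 0.872% to 1.03% in the CEBPG knockouts. These shares are of reads and not per length, so they do not rank cell types, but RNA of several other retinal cell types was present in every library. The cells are therefore called sorted cells below. In a bulk sample, fewer cells of a type and less RNA per cell cannot be told apart.

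Of 15721 genes tested with edgeR's quasi-likelihood test, 3592 (22.8%) differed at a Benjamini-Hochberg adjusted p below 0.05, called here. Of these 1624 (10.3% of the genes tested) were higher in the ATF3 and 1968 (12.5%) higher in the CEBPG knockouts. All differences are given as ATF3 minus CEBPG on the log2 scale, positive where the ATF3 knockouts were higher, with their standard error (SE). Their median over all genes was -0.03. Where 2 ranges of CPM are given, the ATF3 libraries come first and the CEBPG libraries second. A change of more than 2-fold was estimated for 338 of the genes higher in the ATF3 and 909 of those higher in the CEBPG knockouts. Among the genes higher in the ATF3 knockouts, 49 had no read in any CEBPG library. Their fitted differences depend on a prior count and form the diagonal line at the upper left of the plot of difference against level.

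**Figure D2:**
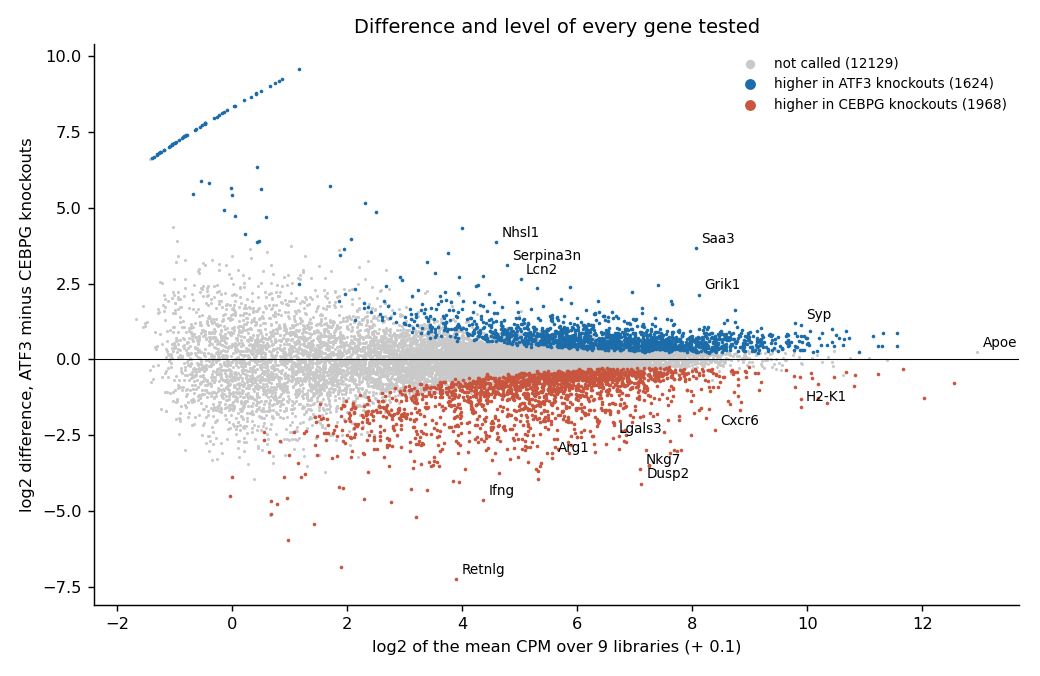
Each point is a gene, with the log2 of its mean CPM over 9 libraries (plus 0.1) on the horizontal axis and the log2 difference, ATF3 minus CEBPG knockouts, on the vertical axis. Grey genes were not called, blue genes (1624) were higher in the ATF3 and red genes (1968) higher in the CEBPG knockouts. Among the genes labelled in the plot, Retnlg (-7.23) and Ifng (-4.62) lie lowest and Nhsl1 (3.85) and Saa3 (3.66) highest.

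Transcripts of the targeted genes were read first, with libraries given in the order of their replicate numbers. Atf3 (chromosome 1, 191170296 to 191218039, minus strand, build mm10) was at 30.8, 38.9, 40.8, 48.6 and 34.4 CPM in ATF3 and 56.5, 121, 61.1 and 65.9 CPM in CEBPG knockouts. Every ATF3 knockout library lay below every CEBPG knockout library (log2 difference -0.98, SE 0.22, adjusted p = 0.00741), and without CEBPG replicate 8, the highest, the difference was -0.64 and still called. A low Atf3 level is not particular to the ATF3 label, since the median in the CHOP knockouts, scaled together with the other groups, was 33.5 CPM against 38.5 CPM with ATF3 knocked out. Cebpg (chromosome 7, 35046422 to 35056573, minus strand) was at 60.9, 60.9, 55, 69 and 68.5 CPM in ATF3 and 97.3, 50.4, 93 and 65.4 CPM in CEBPG knockouts. The ranges overlapped and the difference was not called (log2 difference -0.28, SE 0.18, adjusted p = 0.3); without CEBPG replicate 6 or 9 it was -0.14 in both fits. A small insertion or deletion made by Cas9 need not lower the level of a transcript, so the Cebpg level does not check the CEBPG label. Atf4, which encodes the partner of C/EBP gamma, was at 95.1, 78.6, 99, 86.6 and 84.7 CPM in ATF3 and 136, 153, 122 and 120.0 CPM in CEBPG knockouts, lower in each ATF3 library than in any CEBPG library (log2 difference -0.58, SE 0.11, adjusted p = 0.00205). Ddit3, which encodes CHOP, a pro-apoptotic factor downstream of ATF4, did not pass (58.2 to 65.3 against 58.7 to 78.5 CPM, adjusted p = 0.494).

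Genes of T and NK lymphocytes, blood-borne immune cells, were higher in the CEBPG knockouts. Of 39 tested genes of the list, 36 were called higher in the CEBPG knockouts and 0 in the ATF3 knockouts, with a median log2 difference of -2.51, against 12.5%, 10.3% and -0.03 over all genes. Together these genes took 0.0617% to 0.0682% of counted reads in the ATF3 knockouts and 0.325% to 0.423% in the CEBPG knockouts (exact permutation p = 0.00794, adjusted p = 0.0137 over the marker lists). Lck, the kinase that starts T cell receptor signalling, was at 64.9, 58.1, 48.5, 53.7 and 48.8 CPM in ATF3 and 359, 388, 458 and 534 CPM in CEBPG knockouts. Lck differed by -2.99 (SE 0.13, adjusted p = 4.68e-08). The lowest CEBPG library was several times above the highest ATF3 library. The adaptor Lat (-2.68, SE 0.13) and Cd3g, a chain of the receptor complex (58.1 to 71.8 against 275 to 409 CPM; -2.38, SE 0.12), were also higher in the CEBPG knockouts. Themis, needed for T cell development, was at 1.59 to 7.84 against 25.6 to 66.2 CPM and Gzmk, a granzyme of effector T cells, at 0.635 to 5.23 against 20.3 to 46.3 CPM. Ifng, the cytokine interferon gamma made by T and NK cells, was at 2.31, 0.0328, 2.5, 3.05 and 0.99 CPM in ATF3 and 36.7, 47.7, 34 and 57 CPM in CEBPG knockouts. Ifng differed by -4.62 (SE 0.64, adjusted p = 0.000267). None of these genes overlapped between the groups.

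The members of the list that were not called were Foxp3, Il2ra and Ncr1. The genes of the next sentences, to Nkg7, were picked after their values had been seen. Foxp3, the transcription factor of regulatory T cells, was at 39.9, 39.5, 33.4, 37.6 and 42.5 CPM in ATF3 and 42.8, 36.5, 42.4 and 35.7 CPM in CEBPG knockouts, with overlapping ranges (log2 difference -0.03, SE 0.13, adjusted p = 0.91). Cd163l1, which gamma delta T cells carry on their surface, was at 92.6, 102, 100.3, 89.9 and 84.2 CPM in ATF3 and 133, 86.7, 111 and 119 CPM in CEBPG knockouts (log2 difference -0.26, SE 0.12, adjusted p = 0.162), though without CEBPG replicate 8 it was called (-0.34, adjusted p = 0.0323). By contrast Cd4 (7.9 to 24.3 against 94.8 to 134 CPM; -3.07, SE 0.29), Cd8a (4.67 to 10.2 against 63.6 to 107 CPM; -3.40, SE 0.24) and Nkg7, a gene of cytotoxic granules (19.6 to 25.1 against 180.5 to 363 CPM; -3.61, SE 0.18), were far higher in the CEBPG knockouts. Reads on the rest of the lymphocyte list numbered 14.2 to 17.5 per Foxp3 read in the ATF3 and 71.9 to 117 in the CEBPG libraries. Foxp3 was picked after its even level had been seen, so this ratio restates the differences of the list and is no separate result. Of 20 gamma delta and type 17 genes, 6 were called higher in the CEBPG (12.5% over all genes) and 2 in the ATF3 knockouts (10.3%). The second count fell to 1 without ATF3 replicate 5 or 7 or CEBPG replicate 8 or 10. Those higher in the CEBPG knockouts included the interleukin 18 receptor genes Il18r1 (-2.51, SE 0.20) and Il18rap (-2.35, SE 0.39), the costimulator Icos, also on the T and NK list (-1.90, SE 0.13), and the receptor Ccr8, also on the chemokine list (-2.46, SE 0.28).

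**Figure D3:**
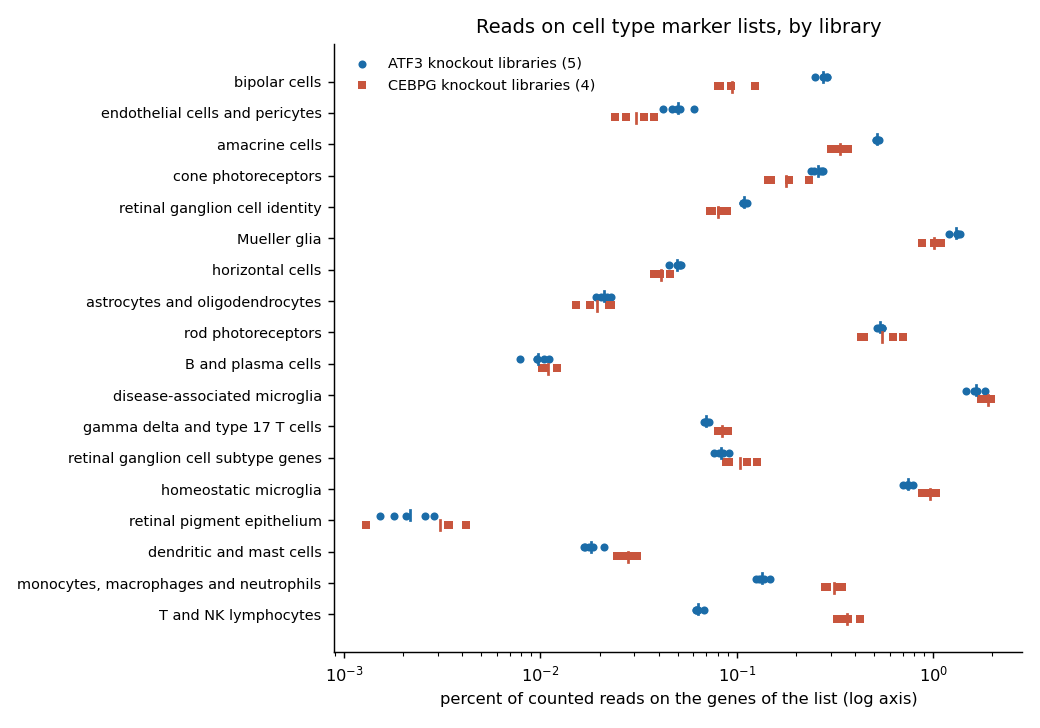
Percent of counted reads on the genes of each cell type marker list (log axis), 1 point per library, with circles for the 5 ATF3 and squares for the 4 CEBPG knockouts and a short line at each group mean. Lists are ordered by the ratio of the means. Lymphocyte genes took 0.0637% of reads on average in the ATF3 and 0.362% in the CEBPG knockouts, and bipolar cell genes 0.275% and 0.0948%.

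Antigen presentation and interferon genes were higher in the CEBPG knockouts too. The shares of reads on the lymphocyte list and on that of monocytes, macrophages and neutrophils moved in the same direction. The part of these cells in the differences was not tested. In the list of MHC and antigen presentation, 19 of 21 tested genes were called higher in the CEBPG and 0 in the ATF3 knockouts (median -1.22). H2-K1, a class I heavy chain, was at 515, 522, 510.5, 483 and 503 CPM in ATF3 and 1403, 1436, 1542 and 1597 CPM in CEBPG knockouts. H2-K1 differed by -1.56 (SE 0.07, adjusted p = 3.25e-08). The second classical heavy chain, H2-D1, differed by -1.28 (SE 0.09), and the immunoproteasome subunits Psmb9 and Psmb8, which cut peptides for class I, by -1.76 and -1.42. Class I genes share long stretches of sequence, so the split of reads among them is uncertain. Invariant chain gene Cd74, of the class II pathway and picked after its values had been seen, was at 437 to 656 against 1129.7 to 1607 CPM (-1.30, SE 0.13), while Ciita, the class II regulator, had groups that did not overlap but was not called (4.66 to 11.1 against 13.3 to 21.6 CPM; adjusted p = 0.0544), although DESeq2 called it (adjusted p = 0.0328).

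Among interferon-response genes, 24 of 36 were called higher in the CEBPG knockouts and 0 in the ATF3 knockouts (median -0.84). Irf1, a factor induced by interferon gamma, was at 58.5, 70.7, 69.9, 58.8 and 62.3 CPM in ATF3 and 197, 174, 146 and 176 CPM in CEBPG knockouts. Irf1 differed by -1.43 (SE 0.11, adjusted p = 2.35e-06). Cxcl10, a chemokine that draws activated T cells, was at 1.11, 2.2, 2.42, 2.21 and 1.35 CPM in ATF3 and 41, 32.3, 23.6 and 21.7 CPM in CEBPG knockouts. Cxcl10 differed by -3.99 (SE 0.32, adjusted p = 2.8e-06). The groups stood apart for both genes. Irf7 and Ifi35 differed by -1.04 and -1.35, and the GTPases Gbp5 (-1.88, SE 0.28), Gbp7 (-1.12, SE 0.17) and Gbp2 (-0.97, SE 0.25) and the ubiquitin-like Isg15 (-1.01, SE 0.22) were among the called genes. The Gbp2 ranges overlapped (26 to 38 against 37.8 to 101 CPM), and its difference was -0.63 without CEBPG replicate 8. Members not called included Ifit1, Ifit2, Ifit3, Oas2, Oasl2, Rsad2 and Mx2, which are known as targets of type I interferon. Other such targets, Mx1 (-1.96, SE 0.39), Irf7 and Isg15, were called, so targets of this kind fell on both sides of the threshold. Ifit3 was at 59 to 80.3 against 64.3 to 78.1 CPM (adjusted p = 0.887) and Oasl2 at 55.2 to 84 against 54.8 to 76 CPM (adjusted p = 0.941). Genes of the guanylate-binding and immunity-related GTPase families have near-identical copies, so their counts may be split between copies.

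Promoter sequences are shown for 6 of the called interferon genes and for Atf3, to print the letters that the shares of motifs below count. Of 16 called interferon genes with a window, 12 held a match before a start, and Irf1, Cxcl10, Gbp2, Gbp5 and Isg15 were picked from these, Irf7 from the 4 without. They are the 250 bases before the RefSeq start of the gene, 5′ to 3′ on the gene's strand, build GRCm38.p6 (mm10), and the capitals mark matches, on either strand, to GAAANNGAA (a core of the ISRE, bound by interferon regulatory factors), TTCNNNGAA (the GAS element, bound by STAT dimers) or, in Atf3 alone, TGATGNAA (the C/EBP-ATF composite element). Irf1 is at chr11:53769764-53770013, plus strand, Cxcl10 at chr5:92348890-92349139, minus strand, Gbp2 at chr3:142620413-142620662, plus strand, Gbp5 at chr3:142496684-142496933, plus strand, Isg15 at chr4:156200819-156201068, minus strand, Irf7 at chr7:141266425-141266674, minus strand and Atf3 at chr1:191183334-191183583, minus strand.
Irf1: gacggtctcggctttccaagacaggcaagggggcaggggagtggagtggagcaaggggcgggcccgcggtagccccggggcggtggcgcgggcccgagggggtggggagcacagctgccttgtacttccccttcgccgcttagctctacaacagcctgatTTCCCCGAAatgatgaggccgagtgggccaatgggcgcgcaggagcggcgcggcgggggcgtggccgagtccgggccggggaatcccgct
Cxcl10: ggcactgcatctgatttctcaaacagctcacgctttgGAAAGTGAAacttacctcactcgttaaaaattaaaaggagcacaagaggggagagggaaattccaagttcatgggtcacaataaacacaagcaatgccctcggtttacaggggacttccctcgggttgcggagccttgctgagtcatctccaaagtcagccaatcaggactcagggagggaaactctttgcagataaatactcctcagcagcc
Gbp2: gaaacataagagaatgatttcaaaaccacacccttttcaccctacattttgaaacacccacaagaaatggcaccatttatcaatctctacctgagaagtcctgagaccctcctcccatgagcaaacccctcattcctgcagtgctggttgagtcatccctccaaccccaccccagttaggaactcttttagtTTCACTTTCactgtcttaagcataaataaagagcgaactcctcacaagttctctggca
Gbp5: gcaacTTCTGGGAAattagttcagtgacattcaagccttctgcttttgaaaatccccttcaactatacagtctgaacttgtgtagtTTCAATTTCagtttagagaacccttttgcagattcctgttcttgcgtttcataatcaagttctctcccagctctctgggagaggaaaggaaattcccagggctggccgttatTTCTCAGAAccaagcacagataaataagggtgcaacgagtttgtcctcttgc
Isg15: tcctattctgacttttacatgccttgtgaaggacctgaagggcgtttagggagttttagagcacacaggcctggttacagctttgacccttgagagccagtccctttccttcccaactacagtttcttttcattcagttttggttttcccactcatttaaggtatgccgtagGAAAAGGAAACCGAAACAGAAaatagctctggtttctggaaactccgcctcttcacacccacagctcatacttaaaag
Irf7: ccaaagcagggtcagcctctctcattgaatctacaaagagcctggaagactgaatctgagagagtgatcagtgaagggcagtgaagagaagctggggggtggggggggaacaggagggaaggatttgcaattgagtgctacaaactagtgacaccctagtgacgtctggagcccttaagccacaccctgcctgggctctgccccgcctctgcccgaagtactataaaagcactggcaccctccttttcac
Atf3: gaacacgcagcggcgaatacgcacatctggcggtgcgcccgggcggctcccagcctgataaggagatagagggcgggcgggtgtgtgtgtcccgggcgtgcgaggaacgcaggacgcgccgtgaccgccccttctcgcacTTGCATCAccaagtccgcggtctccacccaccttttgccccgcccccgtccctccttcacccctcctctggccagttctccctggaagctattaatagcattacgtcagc

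In Irf1 the GAS match lies 90 to 82 bases before the start shown, and the window before a second RefSeq start of the gene held none. Irf7 and Ifi35 held neither the ISRE core nor the GAS element. Isg15 holds overlapping ISRE matches between 78 and 58 bases before its start, and Gbp5 holds 2 GAS matches and an ISRE match. Atf3 holds a composite element 110 to 103 bases before its start. RefSeq windows of 300 bases, reaching 50 bases past the start, were found for 12422 of the 15721 genes tested (79.0%). That is under 80%, so the shares that follow are void as a check and are given only as descriptions. The ISRE core was present for 8.77% of all these genes, 12.3% of those higher in the CEBPG and 7.36% of those higher in the ATF3 knockouts, and for 18 of 26 genes of the interferon list. Shares for the GAS element were 8.35%, 9.94% and 8.14% in the same order. The palindromic ATF/CREB site TGACGTCA was in 3.36%, 2.61% and 4.23%, the AP-1 site TGANTCA, which can overlap the other motifs, in 6.43%, 8.73% and 7.51%, and the composite element in 2.83%, 3.63% and 2.35%. The C/EBP palindrome TTGCGCAA was in 0.314%, 0.127% and 0.313%.

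Chemokines and their receptors were also mostly higher in the CEBPG knockouts, 20 of 34 against 2 higher in the ATF3 knockouts (median -1.67). Ccl8, a monocyte attractant, was at 7.12, 6.03, 5.72, 4.49 and 3.8 CPM in ATF3 and 109, 103, 62.3 and 58.2 CPM in CEBPG knockouts. Ccl8 differed by -3.93 (SE 0.25, adjusted p = 6.08e-07). Ccl7, from the same gene cluster, differed by -3.67 (SE 0.23) and Ccl4, a chemokine of activated immune cells, by -2.41 (SE 0.15). The receptor Cxcr6, found on tissue-resident T cells, was at 131, 122, 140.0, 107 and 108 CPM in ATF3 and 561, 505, 598 and 772 CPM in CEBPG knockouts. Cxcr6 differed by -2.32 (SE 0.13, adjusted p = 2.28e-07). The exceptions were Cxcl13, a B cell attractant (47 to 57.4 against 19.7 to 34.1 CPM; 0.98, SE 0.19), and Cx3cl1, the neuronal ligand of the microglial receptor Cx3cr1 (345 to 394 against 151 to 267 CPM; 0.77, SE 0.15), both higher in the ATF3 knockouts. Dusp2, a phosphatase of activated immune cells that is on none of the lists, was at 18.2, 18.5, 18.7, 14.9 and 15.2 CPM in ATF3 and 281, 311, 305 and 263 CPM in CEBPG knockouts. Dusp2 differed by -4.08 (SE 0.11, adjusted p = 1.25e-09), with little spread inside either group.

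Myeloid genes split into a set that differed and a set that did not. Of 23 genes of disease-associated microglia, the lipid-handling and phagocytic state seen around injury, 19 were called higher in the CEBPG knockouts, against 12.5% over all genes. The list took 1.47% to 1.83% of counted reads in the ATF3 knockouts and 1.75% to 1.97% in the CEBPG knockouts. These ranges overlapped, and the ratio of the means was 1.15 (exact permutation p = 0.0238, adjusted p = 0.0323). The 2 called higher in the ATF3 knockouts were Igf1 and Ank, and each call was lost with some single library left out, Igf1 without ATF3 replicate 6, 7, 8 or 9 or CEBPG replicate 8 or 10 and Ank without any of them except CEBPG replicate 10. Clec7a, a receptor for fungal glucans induced in activated microglia, was at 37.9, 36.8, 33.4, 41.8 and 44.8 CPM in ATF3 and 234, 196, 193 and 170.4 CPM in CEBPG knockouts. Clec7a differed by -2.35 (SE 0.12, adjusted p = 1.36e-07). Lgals3, which encodes galectin 3, was at 37.7, 25.5, 32.7, 26.3 and 29.4 CPM in ATF3 and 164, 181, 207 and 180.3 CPM in CEBPG knockouts. Lgals3 differed by -2.59 (SE 0.13, adjusted p = 1.28e-07). Spp1, osteopontin, was at 46.8 to 142 against 313 to 615 CPM (-2.49, SE 0.33). Cst7 and Ccl6 differed by -1.45 and -1.62. For these genes no CEBPG library fell into the range of the ATF3 libraries.

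Some core genes of resting microglia were not called. P2ry12, Tmem119, Cx3cr1 and Csf1r, named after their values had been seen, were at 122 to 169.8 against 124 to 184 CPM, 221 to 248 against 189.6 to 292 CPM, 303 to 324 against 276 to 356 CPM and 759.7 to 809 against 635 to 910.3 CPM, in that order. Their adjusted p-values were 0.764, 0.928, 0.62 and 0.903 and their log2 differences -0.07 (SE 0.14), -0.02 (SE 0.11), -0.07 (SE 0.09) and -0.02 (SE 0.10). The homeostatic list had 9 of 18 genes called higher in the CEBPG knockouts, against 12.5% over all genes. Among them were Siglech (-0.80, SE 0.14), Aif1 (-0.77, SE 0.09) and the protease Ctss (-0.51, SE 0.07). Fcrls, a receptor of resident microglia, was alone in being called higher in the ATF3 knockouts, at 182, 178, 177, 151 and 182 CPM in ATF3 and 62.4, 87.4, 61.7 and 71.8 CPM in CEBPG knockouts. Fcrls differed by 1.30 (SE 0.12, adjusted p = 1.21e-05). Without CEBPG replicates 6 and 8 together Csf1r was called (-0.19, adjusted p = 0.0132). Clec7a reads per read on P2ry12, Tmem119, Cx3cr1 and Csf1r together were 0.0233 to 0.0297 in the ATF3 and 0.0994 to 0.189 in the CEBPG libraries. The genes under this ratio were picked after their even levels had been seen. The ratio therefore restates the difference of Clec7a and is no separate result.

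Of 21 tested genes of monocytes, macrophages and neutrophils (the monocyte list), 12 were called higher in the CEBPG knockouts, against 12.5% over all genes. The list took 0.125% to 0.148% of counted reads in the ATF3 knockouts and 0.28% to 0.344% in the CEBPG knockouts (exact permutation p = 0.00794, adjusted p = 0.0137). Lyz2, lysozyme of myeloid cells, was at 858, 672, 749, 699 and 732 CPM in ATF3 and 2250.1, 1736, 1823 and 2191 CPM in CEBPG knockouts. Lyz2 differed by -1.43 (SE 0.10, adjusted p = 1.12e-06). Ccr2, the receptor that marks inflammatory monocytes, was at 50.2 to 76.1 against 137 to 182 CPM (-1.29, SE 0.13). Arg1, an arginase of alternatively activated macrophages, was at 11.3, 9.8, 7.15, 10.4 and 11.2 CPM in ATF3 and 98.2, 69.1, 96.4 and 112 CPM in CEBPG knockouts. Arg1 differed by -3.23 (SE 0.18, adjusted p = 2.51e-07). Retnlg, of this list, and Alox15, which is not on it, were near 0 in the ATF3 knockouts. Retnlg was at 0 to 0.478 against 15.8 to 56.4 CPM and Alox15 at 0 to 1.69 against 9.84 to 37.3 CPM. Mmp9, a protease abundant in neutrophils, was not called (219 to 271 against 199 to 275 CPM; adjusted p = 0.986). Vcan, the 1 gene called the other way, had 110 reads over the ATF3 libraries and 0 over the CEBPG libraries. With the CEBPG group put at 3 reads in all, Vcan was at least 20.6-fold higher in the ATF3 knockouts.

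Of 19 complement genes, 7 were called higher in the CEBPG (12.5% over all genes) and 2 in the ATF3 knockouts (10.3%), and 10 were not called. C3, the central component, was at 22.2, 23.8, 13.7, 24.4 and 22.5 CPM in ATF3 and 129.8, 124, 117 and 127 CPM in CEBPG knockouts. C3 differed by -2.55 (SE 0.16, adjusted p = 5.55e-07). Factor B, Cfb, differed by -1.25 (SE 0.15). The inhibitors Serping1 (64.3 to 82 against 12.9 to 39.2 CPM; 1.45, SE 0.26) and Clu (1106 to 1283 against 380.0 to 627 CPM; 1.21, SE 0.14), which are also expressed by glia, were the 2 higher in the ATF3 knockouts.

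The acute phase genes ran in both directions. Saa3, an acute phase serum amyloid (chromosome 7, 46711998 to 46715700, minus strand), was at 498, 494, 420.3, 424 and 435 CPM in ATF3 and 41.8, 42.3, 38.3 and 21.3 CPM in CEBPG knockouts. Every ATF3 library was far above every CEBPG library, a difference of 12.7-fold in the fit (log2 difference 3.66, SE 0.19, adjusted p = 1.44e-07). Lcn2, an iron-sequestering protein of reactive glia and neutrophils, was at 44.5, 57.4, 34.7, 50.7 and 69.9 CPM in ATF3 and 10.1, 4.72, 9.16 and 8.9 CPM in CEBPG knockouts. Lcn2 differed by 2.65 (SE 0.27, adjusted p = 2.41e-05). Serpina3n, a protease inhibitor of reactive astrocytes, was at 44.7, 43.5, 38.9, 44.1 and 54.9 CPM in ATF3 and 1.92, 1.15, 8.73 and 8.56 CPM in CEBPG knockouts. Serpina3n differed by 3.10 (SE 0.50, adjusted p = 0.000775). The protease inhibitor A2m was at 34.9 to 52.6 against 12.5 to 17.1 CPM (1.57, SE 0.19). In the opposite direction Serpina3g, a relative of Serpina3n from the same gene cluster, was at 24.7, 23.1, 25.4, 22.4 and 24.3 CPM in ATF3 and 98.7, 84.7, 98.5 and 116 CPM in CEBPG knockouts. Serpina3g differed by -2.05 (SE 0.12, adjusted p = 3.05e-07). The Serpina3 genes are close copies, and the counting may have split their reads. Vim (-0.81, SE 0.12) was also higher in the CEBPG knockouts, and Gfap, the astrocyte filament, was not called (31.8 to 53.4 against 23 to 57.9 CPM; adjusted p = 0.666). The neutrophil markers S100a8 and S100a9 were low and were not called, with 0.185 to 7.36 against 1.4 to 12.4 CPM for S100a8 (adjusted p = 0.344) and 0 to 5.52 against 0.64 to 2.8 CPM for S100a9 (adjusted p = 0.993). These markers do not stand for neutrophils as a whole. Retnlg, on the same list of monocytes, macrophages and neutrophils, was far higher in the CEBPG knockouts (-7.23, SE 0.75).

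**Figure D4:**
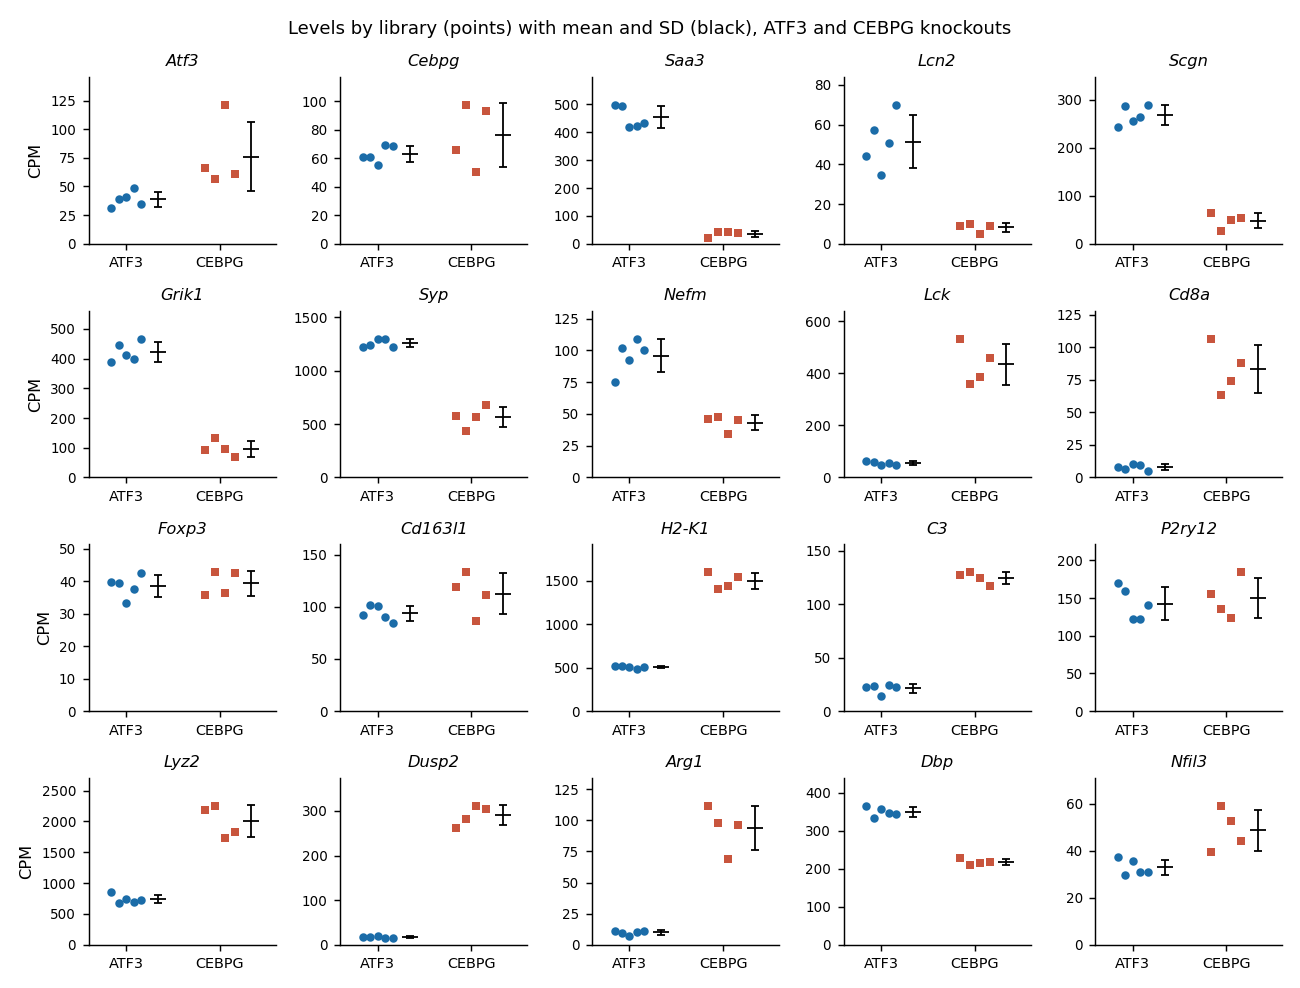
CPM of 20 genes in each library, with circles for the 5 ATF3 and squares for the 4 CEBPG knockouts and the mean and SD in black; every vertical axis starts at 0. Foxp3, Cd163l1 and P2ry12 overlap between the groups, while Lck, Cd8a, H2-K1 and C3 are higher in every CEBPG library and Saa3, Lcn2, Scgn and Grik1 in every ATF3 library.

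Bipolar cells relay signals from photoreceptors to ganglion cells, and 12 of 17 of their genes were called higher in the ATF3 and 0 in the CEBPG knockouts (median 1.55). The list took 0.249% to 0.287% of counted reads in the ATF3 knockouts and 0.0802% to 0.123% in the CEBPG knockouts (exact permutation p = 0.00794, adjusted p = 0.0137). Grik1, a kainate receptor subunit of OFF bipolar cells, was at 389, 444, 411, 398 and 468 CPM in ATF3 and 132, 94.5, 68.6 and 91.2 CPM in CEBPG knockouts. Grik1 differed by 2.13 (SE 0.16, adjusted p = 2.01e-06). The calcium-binding Scgn (243 to 289 against 27.4 to 63.4 CPM; 2.46, SE 0.19) and the proneural factor Neurod4 (559.5 to 673 against 180.5 to 232 CPM; 1.63, SE 0.10) showed the same separation. Vsx1 was at 27.7 to 41.7 against 1.39 to 8.13 CPM (2.76, SE 0.50). Prkca and Pcp2, genes of rod bipolar cells that were picked after their values had been seen, were not called. They were among the 5 genes of the list not called and do not stand for rod bipolar cells as a whole. Prkca was at 45.6 to 51.9 against 43.5 to 76.7 CPM (adjusted p = 0.133), and without CEBPG replicate 9 it was called higher in the CEBPG knockouts (-0.46, adjusted p = 0.0245). Pcp2 was at 83.3 to 105 against 52.6 to 107 CPM (adjusted p = 0.104), and without CEBPG replicate 8 it was called higher in the ATF3 knockouts (0.81, adjusted p = 0.000473).

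For amacrine cells 11 of 18 genes were called higher in the ATF3 and 0 in the CEBPG knockouts (median 0.47), with 0.51% to 0.528% of counted reads in the ATF3 knockouts and 0.301% to 0.367% in the CEBPG knockouts. Gad1, which makes the transmitter GABA, was at 1168, 1219, 1214, 1239.5 and 1279.7 CPM in ATF3 and 690.3, 680.4, 769 and 852 CPM in CEBPG knockouts. Gad1 differed by 0.71 (SE 0.08, adjusted p = 5.8e-05). Slc6a9, the glycine transporter of glycinergic amacrine cells, was at 1466 to 1584 against 566 to 1059.9 CPM (0.87, SE 0.14), and the developmental factors Prdm13 and Nfix differed by 1.52 and 1.10. Cones gave 6 of 13 genes called higher in the ATF3 knockouts, with 7 not called. The first included the opsins Opn1sw (690.1 to 1000.5 against 447 to 588 CPM; 0.64, SE 0.13) and Opn1mw (111 to 152 against 48.2 to 105 CPM; 0.75, SE 0.20). Of the 20 rod genes 1, the shared photoreceptor factor Crx (0.82, SE 0.21), was higher in the ATF3 and 1, Nr2e3 (-0.53, SE 0.14), higher in the CEBPG knockouts, though 2 were higher in CEBPG without replicate 6 or 9 and 3 higher in ATF3 without CEBPG replicate 8. Over all genes 10.3% were called higher in the ATF3 and 12.5% in the CEBPG knockouts. The rod list took 0.517% to 0.55% of counted reads in the ATF3 knockouts and 0.43% to 0.698% in the CEBPG knockouts (exact permutation p = 0.929, adjusted p = 0.929).

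Müller glia, which span the retina and recycle transmitter, gave 9 of 17 genes higher in the ATF3 knockouts (median 0.66), among them Dkk3 (1929.6 to 2187 against 976 to 1196 CPM; 0.92, SE 0.08), Abca8a (1.62, SE 0.32) and Spc25 (0.74, SE 0.11). Vim was the 1 called the other way. The glial lipid carrier Apoe was not called (7423 to 9512 against 6367 to 7843 CPM; adjusted p = 0.0666), but passed without ATF3 replicate 8 (adjusted p = 0.0403) or CEBPG replicate 6 (adjusted p = 0.0235).

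Those genes of vesicle release and of channels that were called over all libraries were higher in the ATF3 knockouts. The shares of reads on bipolar and amacrine cell lists were higher there too, and their part in these differences was not tested. Of 35 genes of vesicle release, 20 were called higher in the ATF3 and 0 in the CEBPG knockouts (median 0.56). Syp, the vesicle protein synaptophysin, was at 1223, 1239, 1297, 1300.3 and 1224 CPM in ATF3 and 439, 569, 677 and 579 CPM in CEBPG knockouts. Syp differed by 1.15 (SE 0.11, adjusted p = 1.25e-05). Slc17a7, the vesicular glutamate transporter of photoreceptors and bipolar cells, differed by 1.19 (SE 0.14). Cplx3, the complexin of ribbon synapses and glycinergic amacrine cells, differed by 0.69 (SE 0.08). Slc17a6, the vesicular transporter that ganglion cells use, was not called (18.5 to 25.4 against 4.83 to 20.5 CPM; adjusted p = 0.264). Of 47 channels and receptors, 17 were called higher in the ATF3 knockouts, among them the potassium channel partner Kcnip4 (1.04, SE 0.12), and 30 were not called (median 0.22). None were called higher in the CEBPG knockouts over all libraries, against 2 without CEBPG replicate 10 and 1 without replicate 8.

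Ganglion cell genes split. Of 20 tested identity genes, 6 were called higher in the ATF3 (10.3% over all genes) and 5 in the CEBPG knockouts (12.5%), the second falling to 3 without CEBPG replicate 8. Pou4f1 was among the second set (-1.48, adjusted p = 0.0471), and its call was lost when any single library other than CEBPG replicate 6 was left out. Nefm, a neurofilament, was at 75.4, 102, 92.4, 109 and 100.2 CPM in ATF3 and 47.9, 34.2, 44.9 and 45.8 CPM in CEBPG knockouts. Nefm differed by 1.15 (SE 0.14, adjusted p = 0.00012). Nefl (0.54, SE 0.10), Tubb3 (0.77, SE 0.18) and the nicotinic subunit Chrna6 (94.6 to 117 against 26.1 to 55.1 CPM; 1.49, SE 0.20) were also higher in the ATF3 knockouts. Isl2, a factor of a subset of ganglion cells, had 101 reads over the ATF3 and 0 over the CEBPG libraries, a ratio of at least 18.6-fold with the CEBPG group put at 3 reads in all. Rbpms, an RNA-binding protein found in the retina almost only in ganglion cells, was higher in the CEBPG knockouts, with 11.7, 6.59, 6.67, 11.3 and 9.15 CPM in ATF3 and 44.6, 21.1, 35.7 and 19.7 CPM in CEBPG knockouts. Rbpms differed by -1.73 (SE 0.29, adjusted p = 0.00113). Sncg, synuclein gamma, was at 18, 13.1, 15.8, 10.5 and 13.6 CPM in ATF3 and 24.4, 24, 35.1 and 24 CPM in CEBPG knockouts. Sncg differed by -0.92 (SE 0.21, adjusted p = 0.00751). Thy1 (10.5 to 14.4 against 19.9 to 35.3 CPM; -0.99, SE 0.21) was higher there too. Thy1 is also on the T and NK list, whose share moved the same way, and the part of lymphocytes in its difference was not tested. Stmn2, a tubulin-binding protein of axons, was at 42.1 to 55.4 against 60.4 to 77.8 CPM (-0.45, SE 0.12), a call lost without CEBPG replicate 8 (adjusted p = 0.0536).

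Subtype genes of ganglion cells gave 4 higher in the ATF3 and 5 higher in the CEBPG knockouts of 25, against 10.3% and 12.5% over all genes. Kcng4, a channel subunit of alpha ganglion cells, was at 88, 71.9, 63.4, 86.5 and 83.5 CPM in ATF3 and 9.39, 33.2, 23.9 and 11.7 CPM in CEBPG knockouts. Kcng4 differed by 2.00 (SE 0.32, adjusted p = 0.000738). Cartpt, the peptide of direction-selective ganglion cells, was at 199.8 to 309.5 against 65.3 to 127 CPM (1.32, SE 0.19). On the other side were Eomes (1.08 to 4.03 against 13.4 to 29.1 CPM; -3.52, SE 0.41), which marks intrinsically photosensitive ganglion cells and is also on the T and NK list, Spp1, also on the microglial list, Satb1 (-0.86, SE 0.17) and Foxp1 (-0.78, SE 0.18). Levels of the lymphocyte and microglial lists moved in the same direction as Eomes and Spp1, and their part in these differences was not tested.

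**Figure D5:**
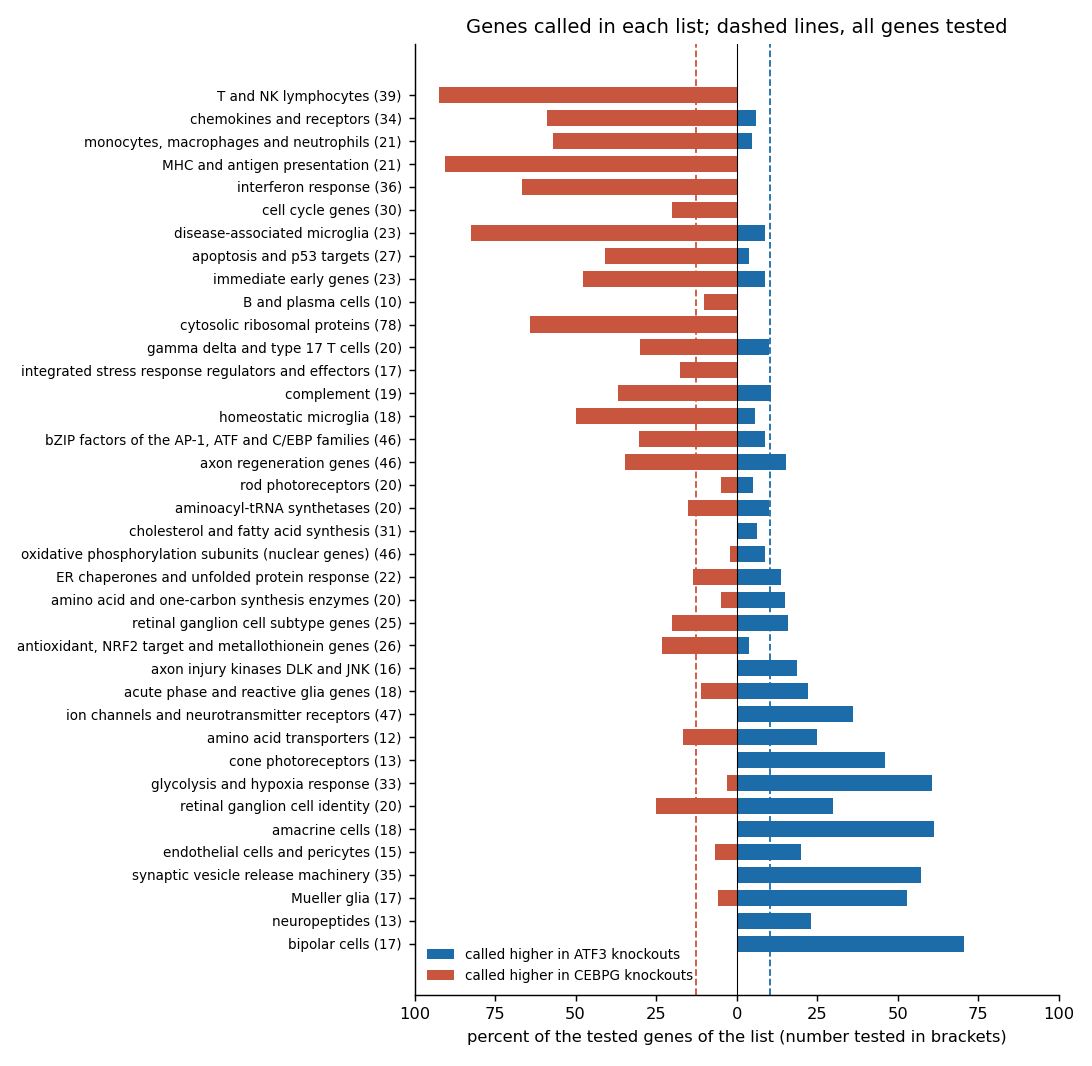
Percent of the tested genes of each list that were called higher in the ATF3 (blue, to the right) or CEBPG knockouts (red, to the left), for lists with at least 10 tested genes, ordered by the median difference. Dashed lines mark 10.3% and 12.5%, the percents over all genes tested. The lymphocyte and antigen presentation lists reach furthest to the left, and the lists of bipolar cells, amacrine cells, glycolysis and synaptic vesicles furthest to the right.

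Families of bZIP factors were read next, since both targets belong to them. Of 46 genes, 14 were called higher in the CEBPG and 4 in the ATF3 knockouts, against 12.5% and 10.3% over all genes. Jun, the AP-1 partner that drives the axon injury response, was at 404, 503, 456, 436 and 446 CPM in ATF3 and 846, 909, 649.8 and 621 CPM in CEBPG knockouts. Jun differed by -0.75 (SE 0.12, adjusted p = 0.000639). Junb was at 608 to 658 against 1003 to 1316 CPM (-0.90, SE 0.09), and Batf, an AP-1 factor of lymphocytes, at 6.81 to 10.3 against 22.8 to 29.2 CPM (-1.59, SE 0.20). Cebpb, a dimer partner of C/EBP gamma, was at 51 to 63.7 against 76.1 to 95.1 CPM (-0.57, SE 0.12). The 4 higher in the ATF3 knockouts were Nfe2l1, the regulator of proteasome genes (249 to 277 against 124 to 200.5 CPM; 0.62, SE 0.12), and the PAR factors Dbp, Hlf and Tef, whose levels follow the daily clock. Dbp was at 365, 333, 358, 346 and 345 CPM in ATF3 and 209, 216, 218 and 227 CPM in CEBPG knockouts (log2 difference 0.68, SE 0.07, adjusted p = 2.64e-05), Hlf differed by 0.67 (SE 0.09) and Tef by 0.47 (SE 0.11). Immediate early genes, which respond within minutes to stimulation, were called higher in the CEBPG knockouts for 11 of 23 and in the ATF3 knockouts for 2, the nuclear receptors Nr4a1 (178 to 194 against 84.3 to 144 CPM; 0.62, SE 0.14) and Nr4a2 (43.5 to 47.3 against 7.26 to 28.8 CPM; 1.32, SE 0.34), or 4 without CEBPG replicate 8. Dusp1 was at 260.0 to 313 against 465 to 956 CPM (-1.20, SE 0.18), while Fos (581 to 685 against 604 to 1099 CPM; adjusted p = 0.193) and Egr1 (776 to 890.3 against 525 to 940.0 CPM; adjusted p = 0.117) were not called. Without CEBPG replicate 8 Egr1 was called higher in the ATF3 knockouts (0.57, adjusted p = 0.000902). Immediate early genes also respond to the dissociation of tissue, and its part in these values was not tested.

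The integrated stress response is the pathway through which ATF4 and its partners raise amino acid supply. Its list of regulators and effectors had a median difference of -0.44, against -0.03 over all genes. Counts in this paragraph are set against 10.3% of all genes called higher in the ATF3 and 12.5% in the CEBPG knockouts. Of 17 regulators and effectors, 3 were called higher in the CEBPG knockouts (12.5% over all genes), Cebpb, the cell cycle inhibitor Cdkn1a (12.2 to 20.2 against 31.5 to 39.5 CPM; -1.07, SE 0.18) and Nupr1 (28.6 to 38.1 against 36.2 to 64.3 CPM; -0.72, SE 0.18), and 0 in the ATF3 knockouts (10.3% over all genes), or 1 without CEBPG replicate 9. Chac1, Trib3, Sesn2 and Ddit4, standard targets of ATF4 and CHOP, were not called (adjusted p = 0.13, 0.778, 0.203 and 0.138). Asns, asparagine synthetase, was at 70, 66.1, 63.9, 55.8 and 54.3 CPM in ATF3 and 41.1, 42.3, 77.4 and 63.4 CPM in CEBPG knockouts. Asns differed by 0.14 (SE 0.19, adjusted p = 0.646). Psat1, of the serine pathway, was at 37 to 54.7 against 23.1 to 54.9 CPM (adjusted p = 0.726). Enzymes of amino acid and one-carbon synthesis gave 3 calls higher in the ATF3 and 1 higher in the CEBPG knockouts of 20, the second becoming 4 without CEBPG replicate 6 and 2 without replicate 8 or 9. Phgdh, the first enzyme of serine synthesis, was higher in the CEBPG knockouts (16.1 to 19.4 against 25.4 to 40.9 CPM; -0.87, SE 0.18), and Got1 (0.68, SE 0.12) and Got2 (0.46, SE 0.10), which transfer amino groups to aspartate, higher in the ATF3 knockouts. Amino acid transporters gave 3 and 2 of 12, the second falling to 1 without ATF3 replicate 6, 7 or 8 or CEBPG replicate 8. In either direction 41.7% of the transporters were called, against 22.8% over all genes. Their largest difference was in Slc1a5, the glutamine carrier, at 35.5, 44.2, 34.9, 37.3 and 43.6 CPM in ATF3 and 187, 144, 161 and 207 CPM in CEBPG knockouts. Slc1a5 differed by -2.16 (SE 0.13, adjusted p = 4.21e-07), higher in each CEBPG library. For tRNA synthetases 2 and 3 of 20 were called higher in the ATF3 and CEBPG knockouts, shares near those of all genes, and for endoplasmic reticulum chaperones 3 and 3 of 22. The synthetase count higher in CEBPG fell from 3 to 1 without ATF3 replicate 6 or 8 or CEBPG replicate 9 or 10, and the chaperone count higher in ATF3 fell from 3 to 1 without ATF3 replicate 5 or 8 or CEBPG replicate 8. Edem1, which feeds misfolded proteins to degradation, had the largest chaperone difference among those (31.2 to 62.1 against 76.8 to 126 CPM; -1.21, SE 0.21).

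Genes of cell death came next. Of 27 apoptosis genes and p53 targets, 11 were called higher in the CEBPG knockouts (12.5% over all genes). In the ATF3 knockouts 1 was called higher (10.3% over all genes), or 2 without CEBPG replicate 9 or 10, and 15 were not called. The death effector Bax was at 86.1 ± 10.7 CPM (SD, n = 5) in the ATF3 and 155 ± 8.75 CPM (n = 4) in the CEBPG knockouts. Bax differed by -0.85 (SE 0.11, adjusted p = 0.000116). Bcl2, which blocks cell death, was at 20.5, 13.9, 13.4, 24.1 and 27.5 CPM in ATF3 and 100.3, 63.3, 70.1 and 70.6 CPM in CEBPG knockouts. Bcl2 differed by -1.93 (SE 0.23, adjusted p = 9.11e-05). Both were higher in each CEBPG library than in any ATF3 library, as was Mdm2, the p53 ligase and target (-0.59, SE 0.09). Gadd45a, a stress gene induced by p53 and ATF4, went the other way, at 75.1, 72.8, 75.2, 80.8 and 85.5 CPM in ATF3 and 41.9, 36.1, 41.3 and 29 CPM in CEBPG knockouts. Gadd45a differed by 1.07 (SE 0.13, adjusted p = 0.000123). Lymphocytes and microglia express Bcl2 and Bax too; their lists moved in the same direction, and their part in these differences was not tested.

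Of 46 genes tied to axon regeneration, 16 were called higher in the CEBPG and 7 in the ATF3 knockouts, against 12.5% and 10.3% over all genes. The first set held Arg1, Lgals3 and Spp1 of the myeloid paragraphs, Lgals1 (32.4 to 36.1 against 84.3 to 117 CPM; -1.60, SE 0.12), Klf6 (94.4 to 107 against 175 to 299.8 CPM; -1.20, SE 0.13) and the injury-induced peptidase Ecel1 (30.9 to 46.6 against 77.7 to 110.1 CPM; -1.26, SE 0.15). Higher in the ATF3 knockouts were Tubb2a, a neuronal tubulin (452 to 517 against 249 to 304 CPM; 0.83, SE 0.08), and the neuropeptide Vip (22.5 to 53.6 against 4.92 to 15.8 CPM; 1.75, SE 0.38), which amacrine cells make. Standard growth genes were not called: Gap43 was at 49.8 to 58.5 against 44.9 to 81.3 CPM (adjusted p = 0.548), Sox11 at 10.9 to 16.3 against 8 to 28 CPM (adjusted p = 0.703) and Sprr1a, a target of ATF3, at 0.368 to 2.66 against 0.866 to 1.17 CPM (adjusted p = 0.62). The genes Ecel1, Gap43, Sox11 and Sprr1a were picked after their values had been seen.

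Ribosomal and glycolytic genes differed in opposite directions. Shares of reads on lymphocyte and monocyte lists moved with the first and those on bipolar and amacrine lists with the second, and their part was not tested. Cytosolic ribosomal proteins were called higher in the CEBPG knockouts for 50 of 78 and in the ATF3 knockouts for 0 (median -0.46). Rpl13 was at 204, 191, 202, 190.0 and 196 CPM in ATF3 and 292, 319.7, 294 and 335 CPM in CEBPG knockouts. Rpl13 differed by -0.66 (SE 0.08, adjusted p = 6.07e-05). Rps19 and Rpl32 differed by -0.85 and -0.93. Ribosomal protein genes have many processed copies, and the sources used here do not say how reads on them were counted. Glycolysis and hypoxia genes were called higher in the ATF3 knockouts for 20 of 33 (median 0.43). Eno2, the neuronal enolase, was at 826, 813, 829, 803 and 784 CPM in ATF3 and 392, 502, 539 and 484 CPM in CEBPG knockouts. Eno2 differed by 0.76 (SE 0.09, adjusted p = 8.63e-05). Hif1a (0.69, SE 0.09), Pfkm (0.53, SE 0.09) and the neuronal glucose transporter Slc2a3 (0.89, SE 0.16) were higher as well. The regulator Pfkfb3 was the 1 called the other way (33.6 to 44 against 57.3 to 83.9 CPM; -0.89, SE 0.14). Nuclear genes of respiration showed 4 and 1 calls of 46, and cholesterol and fatty acid synthesis 2 and 0 of 31, both under the shares over all genes. Without CEBPG replicate 9 the first of these counts was 7, and without CEBPG replicate 8 the third was 4.

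Cell cycle genes were called higher in the CEBPG knockouts for 6 of 30, against 12.5% over all genes. Hmgb2, abundant in dividing cells, was at 37.6, 35.8, 32.3, 34.7 and 33.4 CPM in ATF3 and 111, 130.3, 115 and 125 CPM in CEBPG knockouts. Hmgb2 differed by -1.79 (SE 0.10, adjusted p = 2.51e-07). Top2a, the topoisomerase of dividing cells, was at 3.76, 4.95, 4.13, 9.34 and 4 CPM in ATF3 and 35, 24, 16.2 and 23 CPM in CEBPG knockouts. Top2a differed by -2.23 (SE 0.33, adjusted p = 0.000416). Antioxidant, NRF2 target and metallothionein genes gave 6 of 26 higher in the CEBPG knockouts, among them ferritin light chain Ftl1 (1186 to 1491 against 2017 to 2711 CPM; -0.86, SE 0.10) and heme oxygenase Hmox1 (27.2 to 43.1 against 59.2 to 72.8 CPM; -0.96, SE 0.16). The peroxiredoxin Prdx3 was called higher in the ATF3 knockouts (0.45, SE 0.11), where the count was 5 without CEBPG replicate 8, and the median of the list was 0.10.

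The further lists are small, and their counts are read against 10.3% of all genes called higher in the ATF3 and 12.5% in the CEBPG knockouts. Kinases of the axon injury pathway around DLK and JNK gave 3 of 16 genes higher in the ATF3 knockouts (5 without CEBPG replicate 8) and 0 in the CEBPG knockouts, and neuropeptides 3 and 0 of 13. Horizontal cells gave 2 and 0 of 7, endothelial cells and pericytes 3 and 1 of 15, B and plasma cells 0 and 1 of 10, and dendritic and mast cells 1 and 5 of 9, in the same order. For astrocytes and oligodendrocytes the counts were 1 and 1 of 8, and for retinal pigment epithelium 1 and 1 of 7. With single libraries left out, the counts higher in the ATF3 knockouts ran from 1 to 3 for horizontal cells (1 without ATF3 replicate 6 or 9), 1 to 5 for endothelial cells and pericytes (1 without ATF3 replicate 6, 7, 8 or 9, 5 without CEBPG replicate 6 or 9) and 0 to 2 for retinal pigment epithelium (0 without ATF3 replicate 6, 7, 8 or 9 or CEBPG replicate 9, 2 without CEBPG replicate 10). B and plasma cells gave 1 without CEBPG replicate 10. The counts higher in the CEBPG knockouts ran from 1 to 3 for B and plasma cells (2 without CEBPG replicate 6, 3 without replicate 9). They fell to 0 for endothelial cells and pericytes without ATF3 replicate 5, 7 or 9 or CEBPG replicate 8 or 10, and for astrocytes and oligodendrocytes without ATF3 replicate 5, 7, 8 or 9 or CEBPG replicate 9 or 10. They rose to 1 for neuropeptides without ATF3 replicate 8 or CEBPG replicate 8 and for the DLK and JNK list without CEBPG replicate 10.

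Where a list had 0 calls in a direction by edgeR, few of its genes reached an unadjusted p under 0.05 in that direction. The numbers were 0 for T and NK cell, MHC, interferon, ribosomal and cell cycle genes higher in the ATF3 knockouts and for amacrine, cone and horizontal cell genes higher in the CEBPG knockouts, and DESeq2 also called 0 in each. They were 1 for synaptic vesicle and bipolar cell genes and 2 for channels and for neuropeptides higher in the CEBPG knockouts, again with 0 called by DESeq2. They were 1 for the integrated stress response and for B and plasma cells higher in the ATF3 knockouts, and 2 for DLK and JNK kinases and for cholesterol and fatty acid synthesis higher in the CEBPG knockouts, and DESeq2 called 1 gene in each of these.

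The largest differences outside these lists, among called genes with at least 5 CPM in the higher group and no overlap, included Dusp2, given above, and genes with few reads on the lower side. Nhsl1, an actin regulator, was at 40, 40.7, 42.5, 39 and 43 CPM in ATF3 and 5.55, 0, 3.07 and 3.13 CPM in CEBPG knockouts. Nhsl1 differed by 3.85 (SE 0.65, adjusted p = 0.00105). Oxtr, the oxytocin receptor, was at 22.1, 32, 21.1, 36.8 and 25.1 CPM in ATF3 and 0, 5.41, 0 and 0 CPM in CEBPG knockouts. Oxtr differed by 4.33 (SE 1.15, adjusted p = 0.0165). DESeq2 did not call it (adjusted p = 0.0742). Avpr1a, a vasopressin receptor, and Prph, the filament peripherin, were at 2.46 to 8.13 against 0 to 0.385 CPM and at 7.6 to 10.9 against 0 to 1.15 CPM. For Oxtr, Avpr1a and Prph the CEBPG reads came from a single library (replicate 8, 10 and 9 in that order); without it the group had none and the fitted values rose to 12.43, 10.12 and 10.85, which depend on the prior count. Gabrr3, a GABA-C receptor subunit, was at 18.7 to 25.7 against 0.107 to 5.86 CPM (3.52, SE 0.74, and 5.41 without CEBPG replicate 9), and Pou3f3, a POU factor, at 8.91 to 16.3 against 0.633 to 2.55 CPM (2.73, SE 0.42). Among those higher in the CEBPG knockouts, H2-M2, a nonclassical class I gene, was at 0 to 0.308 against 4.78 to 14.7 CPM, with reads in ATF3 replicate 5 alone (-6.82, and -10.54 without that library). H2-Q10 was at 0.0925 to 1.75 against 13.7 to 29.2 CPM (-4.25, SE 0.65) and Samd3 at 0.119 to 1.8 against 13 to 35.4 CPM (-4.28, SE 0.56).

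Levels in the CHOP knockouts and the controls set these differences beside other groups, as medians under a single scaling over 20 libraries and with no test. The 5 CHOP knockouts are female and of batch 3 like the groups compared, whereas the 4 controls are male and of batch 2, so control, batch and sex cannot be told apart. Saa3 was at 429 CPM with ATF3, 38.8 with CEBPG and 4.79 with CHOP knocked out and 57.8 in the controls. It was thus high in the ATF3 knockouts alone among the groups. Serpina3n was at 43.6 CPM with ATF3, 5.16 with CEBPG and 60.4 with CHOP knocked out and 39.1 in the controls, so the CEBPG knockouts were the low group. H2-K1 was at 507 CPM with ATF3, 1460.0 with CEBPG and 494 with CHOP knocked out and 538 in the controls, C3 at 22.2 CPM with ATF3, 122 with CEBPG and 21.7 with CHOP knocked out and 34.1 in the controls and Dusp2 at 18.1 CPM with ATF3, 284 with CEBPG and 40.3 with CHOP knocked out and 4.55 in the controls, each highest in the CEBPG knockouts. Not every immune gene higher in the CEBPG than in the ATF3 knockouts was so placed. Irf1 was at 61.6 CPM with ATF3, 172 with CEBPG and 65.5 with CHOP knocked out and 130 in the controls. Cd74 was at 589, 1430, 517 and 1860 CPM and Gbp2 at 32.8, 56.5, 24.9 and 101 CPM in the same order, both highest in the controls. Lck was at 53.2 CPM with ATF3, 416 with CEBPG and 80.2 with CHOP knocked out and 2.92 in the controls and Cd3g at 61.7 CPM with ATF3, 317 with CEBPG and 70.1 with CHOP knocked out and 0.762 in the controls, so the medians of these 3 knockout groups of batch 3 all stood above the control median. Grik1 was at 408 CPM with ATF3, 91.4 with CEBPG and 196 with CHOP knocked out and 159 in the controls, so the ATF3 knockouts were the high group. Dbp was at 342 CPM with ATF3, 213 with CEBPG and 328 with CHOP knocked out and 194 in the controls. Of the targeted genes, Atf3 was at 38.5 CPM with ATF3, 62.9 with CEBPG and 33.5 with CHOP knocked out and 112 in the controls, so every knockout group had a median below that of the controls. Cebpg was at 60.4 CPM with ATF3, 78.4 with CEBPG and 57.5 with CHOP knocked out and 82.4 in the controls, so the CEBPG knockouts were not the low group for their own target.

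The authors' deposited table gives a log fold change for each knockout, and states neither its base nor the reference group. It does not say whether both contrasts share reference libraries, so their values are set side by side without a measure of likeness. For Saa3 the authors' deposited table gives 6.1 (FDR 0.00865) for ATF3 and 0.986 (FDR 0.513) for CEBPG. For H2-K1 the authors' deposited table gives 0.337 (FDR 0.301) for ATF3 and 1.68 (FDR 2.3e-08) for CEBPG, and for C3 0.294 (FDR 0.799) for ATF3 and 2.54 (FDR 1.76e-05) for CEBPG. For Lck the authors' deposited table gives 5.13 (FDR 2.95e-06) for ATF3 and 7.88 (FDR 1.33e-11) for CEBPG, with both contrasts positive. For Grik1 the authors' deposited table gives 0.348 (FDR 0.759) for ATF3 and -1.63 (FDR 0.000944) for CEBPG, and for Serpina3n -0.681 (FDR 0.577) for ATF3 and -3.24 (FDR 9.23e-06) for CEBPG. For Atf3 the authors' deposited table gives -2.34 (FDR 0.00421) for ATF3 and -1.1 (FDR 0.0221) for CEBPG.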

How the data were processed

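RNA from cells sorted as retinal ganglion cells was sequenced after SMART-Seq v4 amplification, per the labels' protocols. Raw counts of reads per gene, deposited by the authors, supplied the 9 columns compared. The submitters' processing notes list HTSeq, STAR, edgeR, Picard and build mm10 with neither version nor role. The sources used here do not state counting settings or strand. The deposited sample sheet gives batch, sex and age, aligned reads as counts, the duplicated fraction of read pairs, and component scores of sequencing quality (a score of unstated scale, not used for any result); 34 of its columns were not used. The authors' deposited table of comparisons gives a log fold change, taken as log2 though neither its base nor its reference is stated, with p-values and FDR, and its values are only copied.

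Counts were tested in R 4.3.3 with edgeR 4.0.16 (TMM scaling, filterByExpr with a minimum count of 10, robust quasi-likelihood F test of group, 7 residual degrees of freedom, Benjamini-Hochberg adjustment over 15721 of 17164 genes); all differences, SEs and adjusted p-values come from this fit unless another tool is named. Shares of reads were compared by an exact two-sided permutation test over libraries (Python 3.11.15), adjusted over the marker lists. Counting error was exceeded in each pair from the same group, and no 2 libraries were counted as 1. That check covers counting error only and cannot show separate animals, since amplified reads are not independent molecules. Alternatives were other scalings, no filter, DESeq2 1.42.0, thinned counts, a replicate block, more libraries in the fit and libraries left out. The script was tested on simulated counts with 200 changed genes. It recovered 51% of those changed by 1 on the log2 scale and 81% of those changed by 2. Of its calls 6.38% were false. A gene not called may therefore still differ.

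Members and gene lists were chosen with earlier results of these data known. Genes named are the targeted genes, the 15 largest differences per direction with at least 5 CPM in the higher group and no overlap, up to 4 called members per list and direction by adjusted p, and the 2 most abundant genes of each cell type list. The other genes named as not called, and Cd4, Cd8a, Nkg7, Cd74, Mx1, Gbp2, Gbp5, Gbp7, Isg15, Isl2, Pou4f1, Ecel1, Nfil3, Nr1d1, Nr1d2 and Cry2, fall outside this rule and were chosen after their values had been seen, as were the GAS and ISRE motifs. One library with contradictory labels, and the ATF4 knockouts, are not described here. Some genes that the rule takes are not reported here.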

Additional observations from a re-analysis of the deposited data

Results flagged for a closer look

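A single library far from the rest of its group was found in 26 of 422 groups of 4 or 5 libraries, by the gap to the nearest library over the range of the group (Dixon's ratio, 95% limit). Chance alone gives such a gap in about 1 in 20 groups. No explanation was tested for any of them.

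In the ATF3 knockouts 1 library lay above the others for Ank in replicate 7 (141 CPM against 122 to 124 CPM), Gzmk in replicate 9 (5.23 CPM against 0.635 to 1.43 CPM), H2-D1 in replicate 5 (781 CPM against 696 to 707 CPM) and Lat in replicate 5 (42.3 CPM against 29.1 to 32.4 CPM). Further ATF3 genes of this kind were Nfe2l1 in replicate 7 (277 CPM against 249 to 255 CPM), S100a8 in replicate 8 (7.36 CPM against 0.185 to 1.9 CPM), Slc17a6 in replicate 5 (25.4 CPM against 18.5 to 19.6 CPM) and Top2a in replicate 8 (9.34 CPM against 3.76 to 4.95 CPM). To these are added Vip in replicate 6 (53.6 CPM against 22.5 to 24.9 CPM). 

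In the ATF3 knockouts 1 library lay below the others for C3 in replicate 7 (13.7 CPM against 22.2 to 24.4 CPM), Fcrls in replicate 8 (151 CPM against 177 to 182 CPM) and Sox11 in replicate 6 (10.9 CPM against 15.8 to 16.3 CPM). 

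In the CEBPG knockouts 1 library lay above the others for Atf3 in replicate 8 (121 CPM against 56.5 to 65.9 CPM), Batf in replicate 10 (29.2 CPM against 22.8 to 23.6 CPM), Chac1 in replicate 9 (14.4 CPM against 7.41 to 8.43 CPM) and Gabrr3 in replicate 9 (5.86 CPM against 0.107 to 0.818 CPM). Further CEBPG genes of this kind were H2-Q10 in replicate 8 (29.2 CPM against 13.7 to 15.3 CPM), Pcp2 in replicate 8 (107 CPM against 52.6 to 58.4 CPM) and Sncg in replicate 9 (35.1 CPM against 24 to 24.4 CPM). 

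In the CEBPG knockouts 1 library lay below the others for Cplx3 in replicate 6 (1040 CPM against 1310 to 1350 CPM). 

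For H2-M2, Avpr1a, Oxtr, Prph, every other library of the group had no read. H2-M2 was at 0.308 CPM in ATF3 replicate 5. Avpr1a was at 0.385 CPM in CEBPG replicate 10. Oxtr was at 5.41 CPM in CEBPG replicate 8. Prph was at 1.15 CPM in CEBPG replicate 9. ATF3 replicate 5 also stood apart in 2 shares of reads. It had 0.249% on bipolar cell genes, against 0.276% to 0.287% in the other ATF3 libraries, and 0.0682% on T and NK lymphocyte genes, against 0.0617% to 0.0635%. Both values lay on the ATF3 side of the gap to the CEBPG libraries.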

How the results depend on the processing

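The number of genes called stayed within 1.5 times 3592 in 17 of the 18 alternatives, between 2805 and 4440, and no gene called over all 9 libraries was called in the opposite direction in any of the 18. Leaving out 1 library at a time gave 2805 to 3764 genes, of which 1187 to 1822 were higher in the ATF3 and 1618 to 1944 higher in the CEBPG knockouts. DESeq2 called 4440 genes (2148 and 2292), a fit on library totals alone 3633 (1469 and 2164), counts thinned to 9000250 reads 3557 (1551 and 2006), a fit with the CHOP knockouts 3767 (1899 and 1868) and a fit without CEBPG replicates 6 and 8 together 4132 (2055 and 2077). In that last setting no marker list passed for its share of reads (0 against 14), since its 21 assignments allow no p below 0.0476. The astrocyte and oligodendrocyte share changed sign there (-0.00152 percentage points), as did the rod share (0.00611), which with single libraries left out ran from -0.0492 to 0.04 and was positive without CEBPG replicate 8 or 9 (0.0142 for the latter). The difference of Per3 ran from -0.19 to 0.51 with single libraries left out, the latter without CEBPG replicate 6, and was 0.58 without replicates 6 and 8.

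With the replicate number as a block, 1400 genes were called, 625 higher in the ATF3 and 775 in the CEBPG knockouts, and 38.4% of the original calls remained. Only the numbers 6, 8 and 9 occur in both groups, and the correlations of same-numbered deviations were 0.0162, 0.00402 and -0.00243, so the numbers do not pair the libraries.

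The median SD of a gene on the log2 scale was 0.409 among CEBPG and 0.206 among ATF3 libraries, which limits the size of difference that can be called. The fit took a single spread per gene for both groups. Its SEs and p-values may therefore be too small or too large.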

Other observations

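Genes under the daily clock outside the bZIP list were looked up after Dbp, Hlf and Tef had been seen, and the choice is not independent of those values. Nr1d1, the repressor REV-ERB alpha, was at 462, 488, 477, 494 and 496 CPM in ATF3 and 362, 399.8, 365 and 319 CPM in CEBPG knockouts. Nr1d1 differed by 0.42 (SE 0.08, adjusted p = 0.0021). Its relative Nr1d2 was at 220.4 to 309.8 against 161 to 209 CPM (0.44, SE 0.12). The repressor Cry2 was at 380.2, 413, 398, 419 and 390.4 CPM in ATF3 and 239.6, 286, 261 and 241 CPM in CEBPG knockouts. Cry2 differed by 0.64 (SE 0.08, adjusted p = 0.000114). Each of these was higher in the ATF3 knockouts. Nfil3, a bZIP repressor that binds the sites of Dbp, Hlf and Tef, was higher in the CEBPG knockouts, at 37.3, 29.9, 35.6, 30.8 and 31.1 CPM in ATF3 and 59.1, 52.5, 44.2 and 39.5 CPM in CEBPG knockouts. Nfil3 differed by -0.57 (SE 0.15, adjusted p = 0.0175). Nr1d2 was not called in the fit on 20 libraries (adjusted p = 0.063). Per1, Per2, Arntl and Clock were not called (adjusted p = 0.805, 0.214, 0.745 and 0.454). Per3 was not called either (adjusted p = 0.999), with 90.2, 97.5, 94.6, 84.1 and 93.3 CPM in ATF3 and 175, 71.6, 77.8 and 45.6 CPM in CEBPG knockouts, but it was called higher in the ATF3 knockouts without CEBPG replicate 6 (0.51, adjusted p = 0.033). The sources used here do not say at which hour tissue was taken, and its part in these values was not tested.

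Genes read in every library of one group and in none of the other numbered 61 for the ATF3 and 2 for the CEBPG knockouts. In counts thinned to the smallest library these numbers were 49 and 3.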
